A study of Mus musculus with 22 samples.

Results

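The 7 genes described here, mt-Nd1, mt-Nd2, mt-Nd4, mt-Nd5, mt-Nd6, mt-Co1 and mt-Cytb, are the mitochondrially encoded messenger RNAs with a mean value of 1000 or more over all 22 libraries. They are 7 of the 13 messages and of the 37 genes of the mitochondrial genome, in a table of 52636 genes. They were chosen by their level in these libraries, so that level is given as a description and was not tested. Just inside the threshold was mt-Nd6, with a mean of 2543. Just outside was mt-Atp6, with a mean of 10.1, and the other 5 messages left out had means from 2.41 to 8.77.

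The mitochondrial genome is a small circle that is transcribed from both strands into long precursors, which are cut into messages, ribosomal RNAs and transfer RNAs. All of its messages encode core subunits of the respiratory chain or of ATP synthase, which the nucleus completes with many subunits of its own. In the intestinal epithelium, respiration supplies ATP to both dividing crypt cells and absorptive cells.

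The libraries came from wild-type duodenal epithelium of adult mice, 2 months old and of the outbred CD1 strain by the study's methods, grown as organoids in Matrigel (a basement membrane gel) with EGF, Noggin and R-spondin. Cold atmospheric plasma (CAP), an ionised gas that leaves reactive oxygen and nitrogen species in the culture medium, was the agent tested. Untreated organoids gave 4 libraries, 1 from each of lines 1 to 4, and each of 6 treated groups gave 3 libraries, from lines 1, 2 and 4. Each line came from 1 mouse, so line, animal, sex and passage cannot be told apart. By the labels the passage was 12 for line 1, 14 for line 2 and 4 for line 4. The methods list a lower passage than 4 for some lines of this experiment. They give the lines at passages 12 and 14 as male and the other lines of this experiment as female.

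In the direct groups, CAP was applied to the organoids on day 1 after replating, and the treated medium was replaced after 30 min (direct CAP 30 min) or 24 h (direct CAP 24 h). In the indirect groups, organoids that had never met the plasma received medium conditioned by CAP-treated cultures. In the groups with plasma-activated medium (PAM), they received medium treated without cells. By the study's methods this exposure lasted 24 h, either from day 1 with fresh medium thereafter (indirect CAP day 1, PAM day 1) or from day 2 (indirect CAP day 2, PAM day 2), and RNA was taken on day 3 in every group. The sample labels call the day 1 groups 30 min and the day 2 groups 24 h, and the schedule of the methods is used here. By the study's legends the day 1 groups received freshly made medium, whereas the day 2 groups received medium that had been made on day 1. The day 2 groups therefore differed from the day 1 groups in the age of the medium. They also differed in the age of the culture at exposure and in the time without exposure before RNA was taken. These differences cannot be told apart.

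Values are taken as reads per gene scaled to 20000000 per library and not divided by gene length, that is as shares of each library's RNA, because every library sums to just above that total (20007540 to 20016513). The study's legends describe the unit as also divided by transcript length, and if that held, the levels per kilobase given here would be divided by length a second time, whereas differences between groups within a gene would be the same. Depth estimated from the spacing of low values was 19800000 to 28700000 reads on genes per library. The lowest estimate, for indirect CAP day 1 line 1, fitted hardly better than the next best depth, so this end is uncertain. The lowest value of any of the 7 messages rested on about 909 reads, a counting error of at most 3.32%. In bulk RNA, fewer cells and less RNA per cell cannot be told apart. Summed markers of the epithelium were at 122396 to 210270 in every library. Immune markers summed to 94 to 231, fibroblast and muscle markers to 4 to 31, and endothelial markers to 2 to 28, with Cdh5 at 0 in 17 libraries and Kdr at 0 in 19.

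Untreated libraries of lines 1 and 2 did not match their own line best. After group means were removed, the untreated library of line 1 correlated at r = 0.498 to 0.755 with the treated libraries of line 2 and at 0.0590 to 0.313 with those of line 1, over the genes with a mean of 100 or more. That of line 2 was closer to line 1 than to line 2 in 5 of 6 treated groups, whereas that of line 4 was closest to its own line in all 6. Group comparisons do not use the line, but fits with line as a block do, and such values against untreated organoids are given below also without those 2 libraries.

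All positions are on the mitochondrial chromosome of GRCm38, and each gene is a single exon with no intron. On the + strand lie mt-Nd1 (2751 to 3707), mt-Nd2 (3914 to 4951), mt-Co1 (5328 to 6872), mt-Nd4 (10167 to 11544), mt-Nd5 (11742 to 13565) and mt-Cytb (14145 to 15288). mt-Nd6 (13552 to 14070) lies on the − strand. It is the message encoded on the opposite strand from the other 6, and its end overlaps the end of mt-Nd5 by 14 bases. Whether the counting used strand is not given in the sources used here, and without strand mt-Nd6 reads and reads antisense to it cannot be told apart.

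The first 30 bases of each message are shown because the start codons differ, and the capitals mark the start codon (from the GENCODE vM21 transcripts of GRCm38).
mt-Nd1: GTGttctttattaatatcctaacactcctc
mt-Nd2: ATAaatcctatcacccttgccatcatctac
mt-Nd4: ATGctaaaaattattcttccctcactaatg
mt-Nd5: ATCaatattttcacaacctcaatcttatta
mt-Nd6: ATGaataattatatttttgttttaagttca
mt-Cytb: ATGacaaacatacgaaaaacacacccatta
mt-Co1: ATGttcattaatcgttgattattctcaacc

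The ATG start was found in mt-Nd4, mt-Nd6, mt-Cytb and mt-Co1, whereas mt-Nd1 began with GTG, mt-Nd2 with ATA and mt-Nd5 with ATC, which mitochondrial ribosomes also read as starts. The last 30 bases are shown because some messages lack a complete stop codon in the genome and gain it with the poly(A) tail. Capitals mark the stop codon or the part of it that is encoded.
mt-Nd1: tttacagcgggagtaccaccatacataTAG
mt-Nd2: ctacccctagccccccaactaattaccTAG
mt-Nd4: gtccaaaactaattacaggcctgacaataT
mt-Nd5: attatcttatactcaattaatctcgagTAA
mt-Nd6: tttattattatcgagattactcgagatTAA
mt-Cytb: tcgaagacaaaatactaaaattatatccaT
mt-Co1: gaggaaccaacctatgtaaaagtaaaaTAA

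mt-Nd4 and mt-Cytb ended on a lone T. The messages were 519 bases (mt-Nd6) to 1824 bases (mt-Nd5) long. mt-Nd6 also stood apart in composition, with 28.1% G and 5.97% C, whereas the other 6 had at most 16.1% G and 23.8% to 27.7% C.

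Compared per kilobase in untreated organoids, mt-Co1, the catalytic core of complex IV (cytochrome c oxidase), had the highest mean level at 33297. The complex I subunit mt-Nd1 followed at 22497. mt-Cytb, the cytochrome b of complex III, and the complex I subunit mt-Nd5 were close together at 13881 and 13483. Lower levels per kilobase were found for the complex I subunits mt-Nd2 (9349), mt-Nd6 (7872) and mt-Nd4 (4289). The mitochondrial ribosomal RNAs mt-Rnr2 and mt-Rnr1 were at 63154 and 30698 per kilobase.

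These levels may depend on how reads that match several places in the genome were counted. Whether shared sequence affected them was not tested. For mt-Nd4, 777 of its 1279 windows of 100 bases (60.8%) were identical to annotated nuclear transcripts, as were 446 of 1446 (30.8%) for mt-Co1 and 30 of 939 (3.19%) for mt-Nd2. None of the windows of mt-Nd1, mt-Nd5, mt-Nd6 or mt-Cytb was shared. Divided by the unshared windows alone, the untreated level was 11773 per kilobase for mt-Nd4, 51444 for mt-Co1 and 10675 for mt-Nd2. This scale applies only if reads in shared windows were left out of the counts. It also takes each read singly, whereas the libraries held paired reads. On that scale mt-Nd4 lay above mt-Nd2, so the order of these messages changed with the length used.

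The nuclear sequence that matches mt-Nd4 is Gm28439, a pseudogene on the − strand of chromosome 1 (24611535 to 24612410, GRCm38) that equals the first 876 bases of the message with no difference. For mt-Co1, the chromosome 1 pseudogene Gm29216 (24615706 to 24616197) matched over 492 bases with 6 differences. A second copy of mt-Co1, Gm13340 on the − strand of chromosome 2 (22588103 to 22589647), shared 80 windows with it. The 50 bases of the Gm29216 match that hold the differences, from position 1054 of mt-Co1, are shown because the rest of the match is identical. Capitals mark the differing bases.
mt-Co1: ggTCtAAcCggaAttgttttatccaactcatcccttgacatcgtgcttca
Gm29216: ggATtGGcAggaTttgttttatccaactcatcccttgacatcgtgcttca

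All 6 differences fell at positions 1056 to 1066 of mt-Co1, and the rest of the stretch was the same. Reads that lie wholly in the rest of the 492-base match hold no base that separates message from copy. Among the 6 messages outside the threshold, 5 shared 97.6% to 99.9% of their windows with nuclear transcripts. For mt-Atp8, with a mean value of 2.41, 0 of 105 windows were found there. Only annotated transcripts were searched, so a copy in unannotated nuclear sequence would not have been seen. In the mitochondrial genome mt-Atp8 lies between mt-Co2 and mt-Atp6. Their chromosome 1 copies are neighbours too, with Gm10925 (mt-Atp6) ending at 24614651 and Gm28661 (mt-Co2) starting at 24614885.

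Untreated organoids gave the reference level. For mt-Nd6, a subunit of the membrane arm of complex I, the values were 4093, 4418, 3896 and 3935 in lines 1 to 4. For mt-Nd5, a proton-pumping subunit of the same arm, they were 25874, 26260, 23266 and 22970. In mt-Co1 the values were 53912, 61578, 46422 and 43865. Together the 7 messages took 0.702%, 0.756%, 0.619% and 0.584% of the library, a mean of 0.665% ± 0.078 (SD, n = 4), with lines 1 and 2 above lines 3 and 4.

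**Figure D1:**
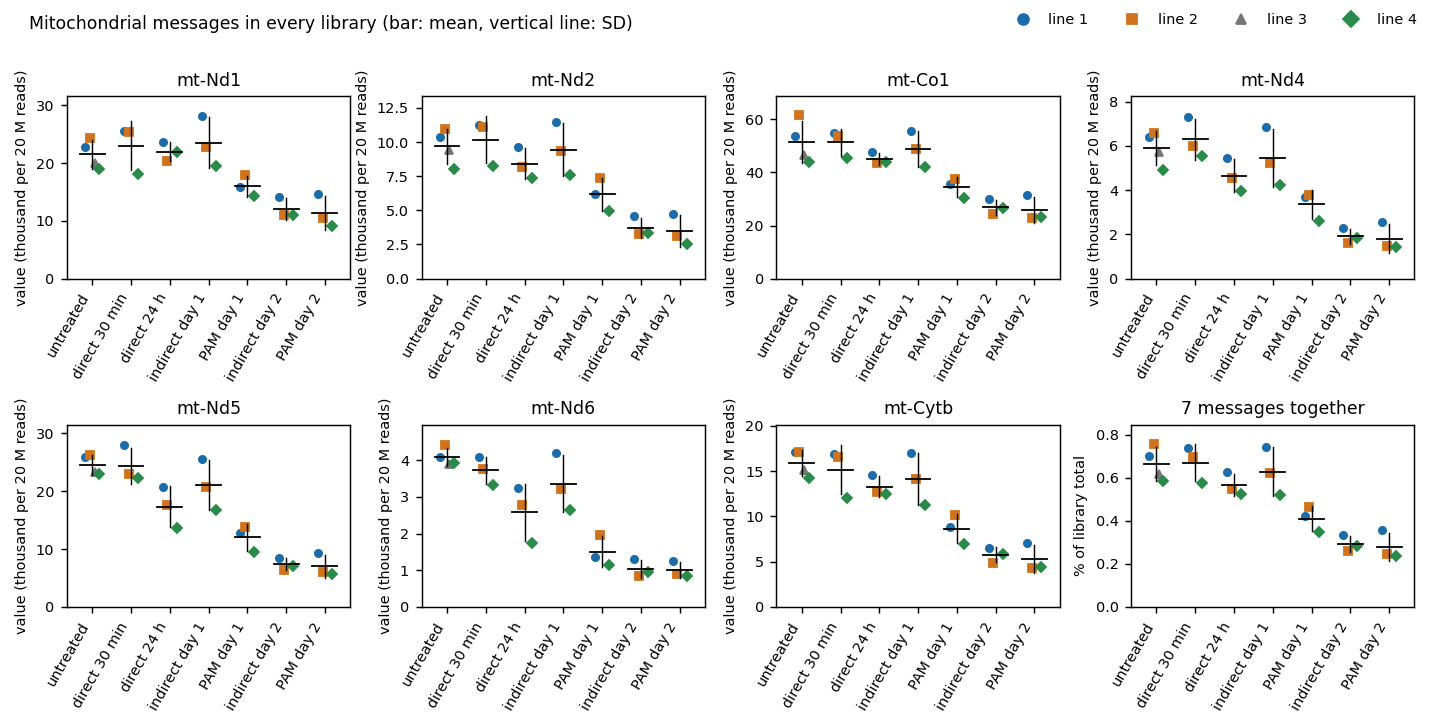
Values of each of the 7 messages (in units of 1000 reads, per library scaled to 20000000) and their joint share (% of the library total) in the 22 libraries, by group, with a point per library marked by line, a horizontal bar at the group mean and a vertical line of 1 SD. In every panel the libraries of PAM day 1, indirect CAP day 2 and PAM day 2 lie below all 4 untreated libraries.

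After PAM from day 2, all 7 messages fell against untreated organoids (7 called at a Benjamini-Hochberg adjusted p under 0.05 by limma, against 29.1% of all genes tested called lower). Their share of the library was 0.279% ± 0.066 (SD, n = 3). At the study's own threshold, an adjusted p under 0.01 and at least a 2-fold change (log2 of 1), 5 of the 7 passed, against 10.5% of all genes. Every PAM day 2 library lay below every untreated library for all 7, a separation found in 32.6% of all genes tested in the lower direction. The values follow by complex.

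Among the complex I subunits, mt-Nd6 was at 1252, 913 and 855 in PAM day 2, a log2 change of −2.04 (SE 0.14, limma adjusted p = 0.000272). mt-Nd5 was at 9357, 6087 and 5629 (−1.84, SE 0.18, adjusted p = 0.000348). mt-Nd4, a further membrane arm subunit, was at 2551, 1474 and 1408, against 6416, 6574, 5730 and 4921 in untreated organoids (−1.75, SE 0.21, adjusted p = 0.000621). In all 3 messages line 1 was the highest of the PAM day 2 libraries and still below the lowest untreated one. mt-Nd2, also in the membrane arm, was at 4767, 3141 and 2568, against 10376, 10980, 9394 and 8065 (−1.51, SE 0.21, adjusted p = 0.000972). Among the complex I messages the smallest change was that of mt-Nd1, which lies where the membrane arm meets the quinone site, with 14661, 10550 and 9032 against 22769, 24356, 20043 and 18952 (−0.94, SE 0.17, adjusted p = 0.00347). mt-Nd1 did not reach the 2-fold limit of the study's threshold.

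In complex III, mt-Cytb was at 7096, 4328 and 4455 after PAM from day 2, against 17106, 17117, 15098 and 14200 in untreated organoids (−1.62, SE 0.18, limma adjusted p = 0.000467). In complex IV, mt-Co1 was at 31399, 22931 and 23220 (−1.0, SE 0.17, adjusted p = 0.00231), just short of the 2-fold limit. The groups did not overlap for either message. The genes thus differed in size of change, from −0.94 to −2.04, beside a median of −0.12 over all genes tested.

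Indirect CAP from day 2 gave 7 of 7 messages lower (23.5% of all genes called lower), and 5 passed the study's threshold (5.71% of all genes). No library overlapped the untreated range for any of the 7, as for 25.8% of all genes in this direction. mt-Nd6 was at 1310, 835 and 944 (−2.01), mt-Nd5 at 8488, 6474 and 7108 (−1.75), and mt-Nd4 at 2283, 1626 and 1833 (−1.63). mt-Nd2 was at 4559, 3258 and 3314 (−1.39) and mt-Nd1 at 14176, 11049 and 10948 (−0.84). These complex I values all lay below the untreated ones, with mt-Nd1 again the least changed. mt-Cytb was at 6520, 4892 and 5843 (−1.47) and mt-Co1 at 29828, 24217 and 26665 (−0.93). SEs ranged from 0.11 to 0.15 and limma adjusted p from 4.03e-05 to 0.00134. The share of the library was 0.293% ± 0.038 (SD, n = 3). Each treated group was compared with the same 4 untreated libraries, so their changes are not independent of each other.

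The comparison of the media on the same schedule, PAM day 2 against indirect CAP day 2, gave log2 differences of −0.15 to −0.03 with SEs of 0.17 to 0.25, and the libraries overlapped for all 7 messages. None was called by limma (adjusted p 0.849 to 0.976), with 0 of 7 at an unadjusted p under 0.05, against 0% of all genes called and 1683 genes at an unadjusted p under 0.05. With these SEs a difference of moderate size would not be detectable.

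PAM from day 1 also gave 7 of 7 lower (26.6% of all genes), but only mt-Nd6 and mt-Nd5 passed the study's threshold (2 of 7, against 5.4% of all genes). mt-Nd6 was at 1374, 1975 and 1155 (−1.48, SE 0.16) and mt-Nd5 at 12776, 13850 and 9427 (−1.05). In both, every library was below the lowest untreated one and line 2 was the highest of the 3. mt-Cytb was at 8875, 10123 and 6910 (−0.89), mt-Nd4 at 3688, 3789 and 2601 (−0.83) and mt-Nd2 at 6224, 7381 and 4948 (−0.66). mt-Co1 was at 35505, 37453 and 30279 (−0.57) and mt-Nd1 at 15896, 17869 and 14241 (−0.43, limma adjusted p = 0.0237). All these libraries too lay under the untreated range, as for 29.7% of all genes. Fitted with all 7 groups sharing 1 estimate of spread, mt-Nd1 was no longer called (limma adjusted p = 0.0544). It was also lost without untreated line 1, untreated line 2 or PAM day 1 line 4, and mt-Co1 was lost without PAM day 1 line 4, so that 5 to 7 were called with 1 library left out. The share of the library was 0.410% ± 0.058 (SD, n = 3).

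**Figure D2:**
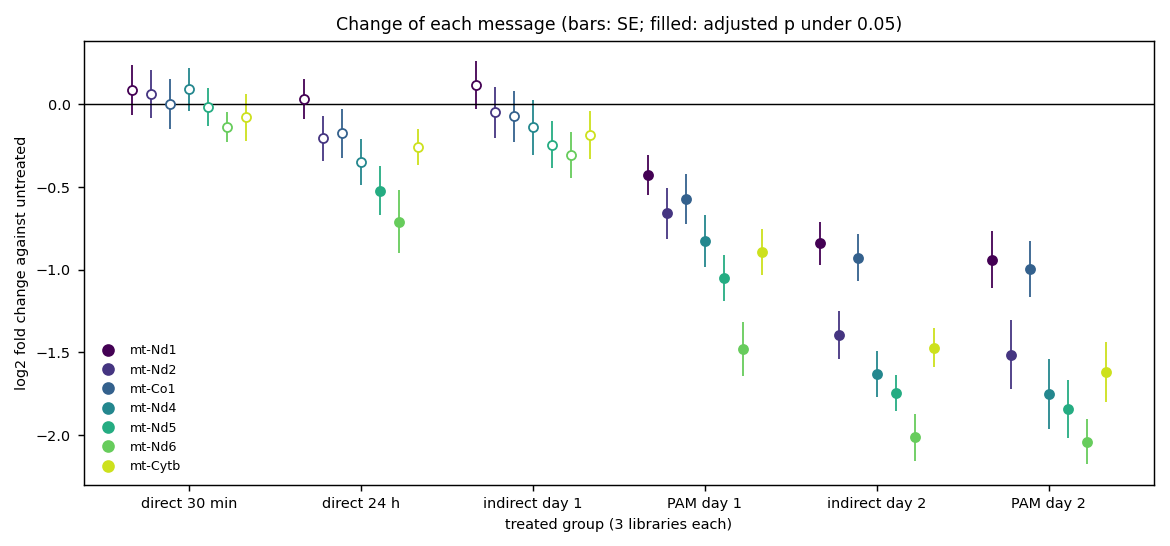
Log2 change of each of the 7 messages against untreated organoids in the 6 treated groups, with vertical lines of 1 SE from limma and filled points for messages called at an adjusted p under 0.05. mt-Nd6 has the most negative estimate in each of the 6 groups, and mt-Nd1 and mt-Co1 lie nearest to 0 in the 3 groups where all 7 fell.

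Direct CAP for 24 h called 2 messages, mt-Nd6 and mt-Nd5 (10.2% of all genes were called lower), and neither passed the study's threshold (0.917% of all genes did). mt-Nd6 was at 3243, 2768 and 1732 (−0.71, limma adjusted p = 0.0372) and mt-Nd5 at 20768, 17600 and 13689 (−0.52, adjusted p = 0.0445). Line 4 was the lowest in both, and all 3 libraries lay below the untreated ones, as for 19.1% of all genes. With line as a replicate block 1 message was called, and 2 when the block was fitted over all 7 groups without the untreated libraries of lines 1 and 2. Without any 1 of the 4 untreated libraries none was called. Without line 2 or line 4 of the treated group 1 was called. The other 5 messages were not called and had log2 differences of −0.35 (mt-Nd4) to 0.03 (mt-Nd1).

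After indirect CAP from day 1 no message was called by limma (0 of 7, with 0 of 7 also at an unadjusted p under 0.05, a level that 6869 of 17818 genes reached), although 10.4% of all genes were called lower. The log2 differences ran from −0.31 for mt-Nd6 (adjusted p = 0.144) to 0.12 for mt-Nd1. mt-Nd6 was at 4193, 3228 and 2657, so that line 1 lay inside the untreated range and lines 2 and 4 below it. Without line 1 of the treated group mt-Nd6 was called, the single change among the left-out libraries here. mt-Nd1 was at 28240, 22881 and 19424, a range that overlaps the untreated one, 18952 to 24356.

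Direct CAP for 30 min left no message called (limma, 0 of 7, and 0 of 7 at an unadjusted p under 0.05, a level that 4415 of 17731 genes reached). In this group a single gene of the table was called, in the higher direction (0.00564% of genes in either direction and 0% lower). Log2 differences of the 7 messages ran from −0.14 for mt-Nd6, with 4079, 3764 and 3335, to 0.09 for mt-Nd4, with 7319, 6014 and 5556. The share of the library was 0.670% ± 0.086 (SD, n = 3), beside 0.665% in untreated organoids.

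The groups exposed for 24 h from day 1, that is direct CAP 24 h, indirect CAP day 1 and PAM day 1, were also compared jointly with untreated organoids by the mean of their effects. The study describes a test of organoids treated directly or indirectly for 24 h without listing its groups, so this choice may differ from its own. In the joint comparison 4 of 7 messages were called lower (21.9% of all genes), mt-Nd6 at −0.83, mt-Nd5 at −0.60, mt-Cytb at −0.45 and mt-Nd4 at −0.44, and none passed the study's threshold (2.4% of all genes did). With line as a replicate block 6 were called, but 2 (mt-Nd5 and mt-Nd6) when the block was fitted over all 7 groups without the untreated libraries of lines 1 and 2, and mt-Nd4 was lost without untreated line 1, 2 or 3. The groups that enter the pooled estimate had different means. For mt-Nd6 the means were 2581 in direct CAP 24 h, 3359 in indirect CAP day 1 and 1501 in PAM day 1.

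Between treated groups, indirect CAP from day 2 was lower than indirect CAP from day 1 for 7 of 7 messages, against 2.21% of all genes called lower. Log2 differences ran from −0.86 (mt-Co1) to −1.71 (mt-Nd6), with limma adjusted p of 0.0193 to 0.0359, and none met the study's threshold, nor did any gene in the lower direction (0%). No library of the day 2 group reached the day 1 range for any of the 7, a separation shown by 14.7% of all genes. With line as a replicate block all 7 were again called. Without indirect CAP day 1 line 1, indirect CAP day 1 line 2, indirect CAP day 2 line 2 or indirect CAP day 2 line 4, 0 messages were called, and in those fits no gene or 2 genes of the whole table were.

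PAM day 2 against PAM day 1 gave log2 differences of −0.42 (mt-Co1) to −0.93 (mt-Nd4). None was called by limma (adjusted p 0.0881 to 0.184), though 7 of 7 were at an unadjusted p under 0.05, as were 4651 genes, and 0% of all genes were called. With line as a replicate block 3 messages were called, with all 7 groups in 1 fit 4, and without PAM day 2 line 1 also 4. The interaction of medium and start day, that is whether the day mattered differently in PAM and in indirect CAP, was not called for any message (limma, 0 of 7, with 2 of 7 at an unadjusted p under 0.05, and 0% of all genes called, 852 at an unadjusted p under 0.05). Its largest estimate was for mt-Nd6, at 1.15 on the log2 scale (SE 0.35, limma adjusted p = 0.986).

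PAM day 1 against direct CAP 24 h, which were both exposed from day 1 to day 2, gave log2 differences of −0.77 (mt-Nd6) to −0.40 (mt-Co1). None was called by limma (adjusted p 0.356 to 0.460), and 0.246% of all genes were called lower. At an unadjusted p under 0.05 were 7 of 7 messages and 1773 of 17072 genes tested. With line as a replicate block 2 messages were called. Direct CAP 24 h against direct CAP 30 min called none of the 7 either (0% of all genes, with 3774 genes and 3 of the 7 messages at an unadjusted p under 0.05), and with the block 2.

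Placed in order, the group means of mt-Nd6 ran from untreated (4086) through direct CAP 30 min (3726), indirect CAP day 1 (3359), direct CAP 24 h (2581), PAM day 1 (1501) and indirect CAP day 2 (1030) to PAM day 2 (1007). Each neighbouring pair in this order overlapped between libraries. For mt-Co1 the same order of groups held, with means from 51444 to 25850, and the ranges were separate at both steps around PAM day 1 (34412). For mt-Nd1 the 4 highest groups, which included the untreated one, had overlapping ranges with means of 21530 to 23515, and PAM day 1 (16002) was separate from both of its neighbours. The day 2 groups overlapped for all 7 messages.

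The lines differed beyond the spread within lines. Over the 18 treated libraries, with group in the model, all 7 messages were called for line by limma, against 39.1% of all genes, and none passed the study's threshold. The span between the highest and lowest line was 0.27 on the log2 scale for mt-Co1 (adjusted p = 0.0362) to 0.54 for mt-Nd4 (adjusted p = 0.000869). Line 1 was the highest of the 3 lines in 5 of 6 treated groups for every message, and the exception was PAM day 1, where line 2 was. Line 4 was the lowest in 5 of 6 groups for the 5 complex I messages, in 4 for mt-Cytb and in 3 for mt-Co1. These spans were smaller than the changes of the day 2 groups for every message.

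Because the 7 messages did not fall equally, their proportions within a library differed between groups. In untreated organoids mt-Nd6 stood at 0.191 ± 0.013 of mt-Nd1 (SD, n = 4). The ratio was 0.164 in direct CAP 30 min, 0.142 in indirect CAP day 1, 0.118 in direct CAP 24 h, 0.0927 in PAM day 1, 0.0889 in PAM day 2 and 0.0847 in indirect CAP day 2. The ratio needs no library scaling, so it is the same whatever the rest of the RNA did. From untreated organoids to PAM day 2, mt-Nd5 to mt-Nd1 went from 1.15 to 0.613, and mt-Cytb to mt-Nd1 from 0.739 to 0.462. mt-Nd2 to mt-Nd1 was 0.450 and 0.302, and mt-Nd4 to mt-Nd1 was 0.274 and 0.157. In contrast mt-Co1 to mt-Nd1 was 2.38 and 2.30. A ratio shows unequal change and not which of its members moved.

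Along the mitochondrial genome, the ribosomal RNAs at the head of the + strand had the smallest called changes of the long genes, with mt-Rnr1 at −0.74 and mt-Rnr2 at −0.48 in PAM day 2 and −0.76 and −0.47 in indirect CAP day 2. mt-Nd1, which follows them, was at −0.94 in PAM day 2. The messages that come last in map order, mt-Nd4, mt-Nd5, mt-Nd6 and mt-Cytb, were at −1.62 to −2.04. Of these, mt-Nd6 lies on the − strand and is not part of the + strand order. The order was not a steady slope, since mt-Nd2 was at −1.51 and mt-Co1, after it, at −1.0. mt-Cytb, the last message, was less changed than mt-Nd5 and mt-Nd6.

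The transfer RNA rows hold reads that lie over these short genes, which in libraries of this kind can be precursors or messages that run across them. Of the 22 transfer RNAs, 18 were tested and 16 were called lower in PAM day 2, 13 in indirect CAP day 2 and 16 in PAM day 1. Of all genes, 29.1%, 23.5% and 26.6% were called lower there. The low row of mt-Ts1 was at 30, 32, 20 and 12 in untreated organoids and at 9, 6 and 6 in indirect CAP day 2. In PAM day 2 it was at 14, 9 and 4. It met the filter value of 10 only or mainly through untreated organoids, so the filter largely set the direction of any call for it. The largest changes were in the cluster between mt-Nd4 and mt-Nd5, with mt-Tl2 at −2.99, mt-Ts2 at −2.97 and mt-Th at −2.89 in PAM day 2 and −2.55, −2.52 and −2.45 in indirect CAP day 2. mt-Te, next to mt-Nd6 on the − strand, was at −2.32 and mt-Tt, next to mt-Cytb, at −1.97 in PAM day 2. Not called there were mt-Tp at −0.46 and mt-Tq at −0.33, both on the − strand. mt-Nd6 thus had the largest change of the 7 messages, while the tested transfer RNAs of its strand ran from −2.32 to −0.33.

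**Figure D3:**
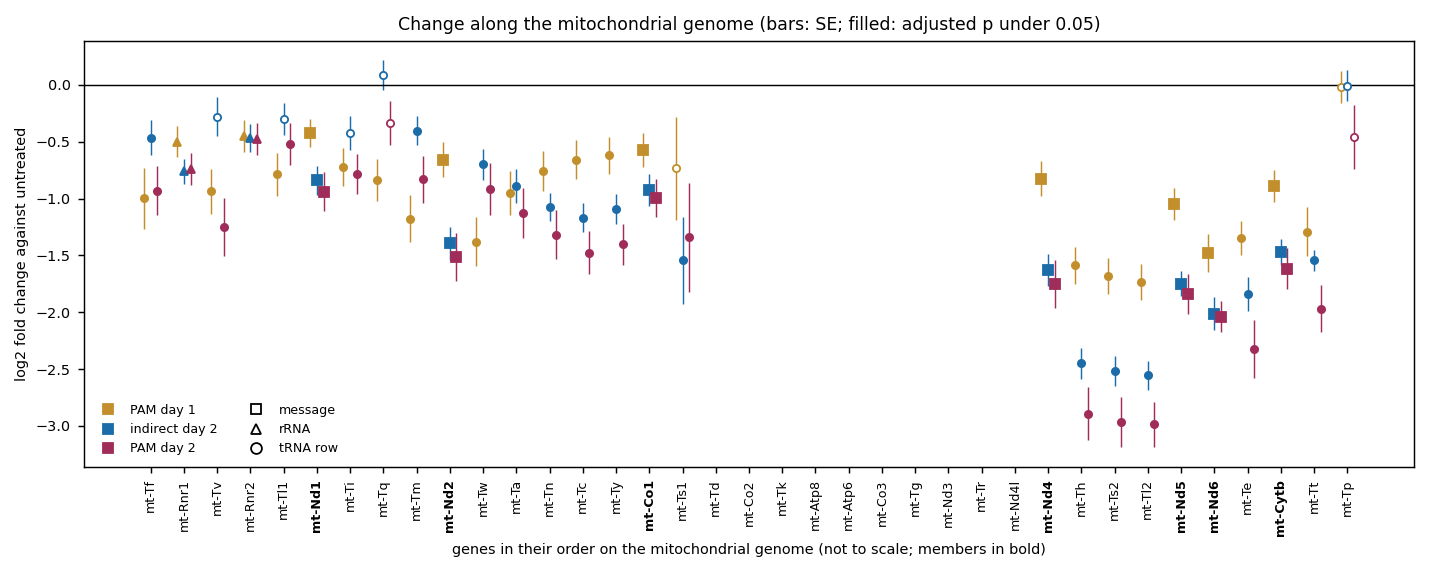
Log2 change against untreated organoids of the genes of the mitochondrial genome (vertical axis) in their map order (horizontal axis) in PAM day 2, indirect CAP day 2 and PAM day 1, with squares for messages, triangles for ribosomal RNAs, circles for transfer RNA rows, vertical lines of 1 SE, filled points for calls at an adjusted p under 0.05 and gaps for genes not tested or not plotted. The lowest points are the transfer RNAs between mt-Nd4 and mt-Nd5, at −2.99 to −2.89 in PAM day 2, and the ribosomal RNAs lie at −0.76 to −0.45 over the 3 groups.

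Nuclear copies of the mitochondrial messages offered a second readout of the messages outside the threshold. In their own rows mt-Co2, mt-Co3 and mt-Atp6 were called lower in both day 2 groups. These rows were at 10 to 18 in untreated libraries and under 10 in every day 2 library. They therefore met the filter value of 10 only through untreated organoids, and the direction of these calls was set by the filter. Gm28438 (a copy of mt-Nd3) had a mean of 815 in untreated organoids and 159 in PAM day 2 (−2.38, SE 0.19, limma adjusted p = 0.000321). Gm28437 (mt-Co3) went from 318 to 55.0 (−2.56, SE 0.25) and Gm10222 (mt-Nd4l) from 299 to 76.7 (−1.99, SE 0.21), and both were called. Of the 10 annotated copies, 6 were tested in PAM day 2 and in indirect CAP day 2, and all 6 were called lower in each. Of all genes, 29.1% and 23.5% were called lower there. Among the 6, Gm10925 and Gm13341 lay near the filter value, with means of 20.5 and 11.25 in untreated organoids and 6 and 2 in PAM day 2. In indirect CAP day 2 their means were 7 and 3.67. They met the filter value mainly through untreated organoids, so the direction of their calls was set largely by the filter. Whether these reads came from the nuclear copies or from mitochondrial messages assigned to them cannot be told apart.

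The copies of mt-Nd4, mt-Co1 and mt-Nd2 held few reads. Gm28439 (mt-Nd4) was at 1 to 11, Gm29216 and Gm13340 (mt-Co1) at 3 to 16 and 4 to 39, and Gm13339 (mt-Nd2) at 0 to 2 over the 22 libraries, beside lowest values of 1408, 22931 and 2568 for their messages. Gm13340 had a mean of 28.2 in untreated organoids and was called lower in PAM day 2 (8.33, log2 change −1.73) and in indirect CAP day 2 (−1.17). Among the messages that share no window with an annotated nuclear transcript, mt-Nd5, mt-Nd6 and mt-Cytb passed the study's threshold in PAM day 2 and mt-Nd1 did not. Among those that share windows, mt-Nd4 (60.8%) and mt-Nd2 (3.19%) passed and mt-Co1 (30.8%) did not. The part of the nuclear copies in the result was not tested. How the counting treated reads with more than 1 place in the genome is not given in the sources used here.

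**Figure D4:**
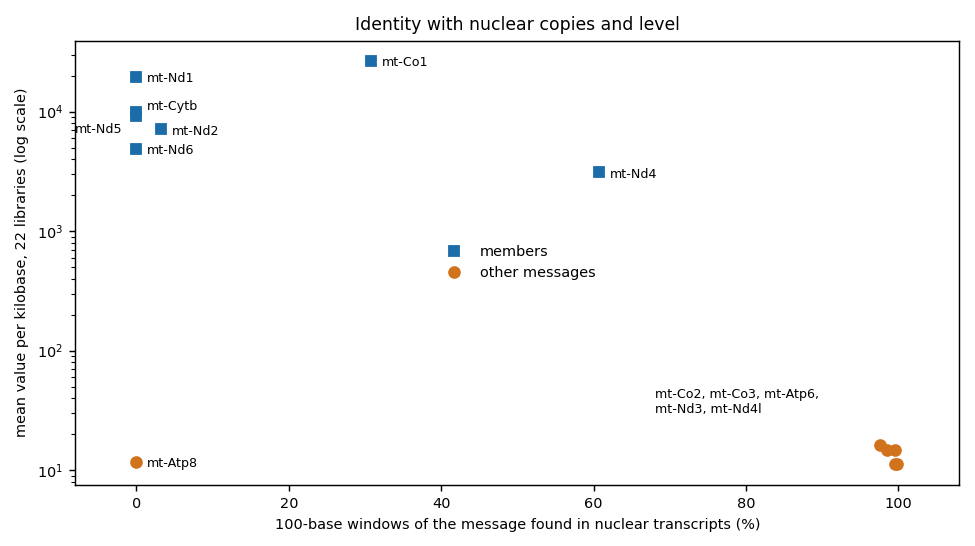
Share of each mitochondrial message's 100-base windows found in annotated nuclear transcripts (percent) on the horizontal axis, against its mean value per kilobase over the 22 libraries on a log axis, with squares for the 7 messages and circles for the other 6. The 7 lie at 3103 to 26577 per kilobase and the other 6 at 11.2 to 16.3, mt-Atp8 among them with no window found in annotated transcripts. Unannotated nuclear sequence was not searched.

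The nuclear partners of the 7 messages were examined by complex. In PAM day 2, 20 of 36 nuclear complex I subunits were called lower and none higher (29.1% of all genes were called lower), with a median log2 change of −0.39 beside −0.12 for all genes tested. They were led by Ndufc2 (−1.17), Ndufb10 (−0.96), Ndufb3 (−0.92), Ndufa1 (−0.90) and Ndufa8 (−0.90), all accessory subunits. In complex III 4 of 9 were called lower, Uqcr11 (−1.43), Uqcrh (−1.29), Uqcr10 (−0.64) and the Rieske iron-sulfur protein Uqcrfs1 (−0.54), with a median of −0.29. In complex IV 6 of 11 were called lower, led by Cox6c (−1.12), Ndufa4 (−0.96), Cox7b (−0.78), Cox6b1 (−0.53) and Cox7c (−0.49), with a median of −0.47. None of these medians reached the least changed mitochondrial message of the same group.

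The other groups gave the following counts for the same lists. In indirect CAP day 2, 25 of 36 complex I, 7 of 9 complex III and 7 of 11 complex IV genes were called lower (23.5% of all genes), with medians of −0.35, −0.26 and −0.39 beside −0.01 for all genes. PAM day 1 gave 19 of 36, 5 of 9 and 3 of 11, the last near the 26.6% of all genes called lower there. In indirect CAP day 1, where no mitochondrial message was called, 13 of 36, 5 of 9 and 1 of 11 were called lower, the last near the 10.4% of all genes. In direct CAP 24 h, where mt-Nd5 and mt-Nd6 were called, none of these genes was, and direct CAP 30 min called none.

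Mitochondrial transcription and replication depend on nuclear genes. In PAM day 2, 12 of 17 such genes were called lower and none higher (median −0.67), beside 29.1% of all genes called lower. The largest changes were those of Tfb1m, a ribosomal RNA methyltransferase (−1.67), Tfam, which packages mitochondrial DNA and starts its transcription (−1.43), the helicase Twnk (−1.12), the single-strand binding protein Ssbp1 (−0.95) and the transcription factor Tfb2m (−0.93). Polrmt, the mitochondrial RNA polymerase, was at −0.58 and was called as well. In indirect CAP day 2, 9 of 17 were called lower (23.5% of all genes), and in PAM day 1, 11 of 17 (26.6% of all genes).

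Tfam was measured at 1502, 1539, 1478 and 1552 in untreated organoids and at 673, 612 and 433 in PAM day 2. In indirect CAP day 2 it was at 778, 752 and 698 (−1.03), and in PAM day 1 at 716, 745 and 624 (−1.13). Every one of these libraries was under the lowest untreated value. Tfam was also called in indirect CAP day 1 (−0.72, limma adjusted p = 0.00611) and in direct CAP 24 h (−0.59, adjusted p = 0.00441), where 0 and 2 of the 7 messages were called.

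Of 19 genes for processing and stability of mitochondrial RNA, 11 were called lower and 1 higher in PAM day 2 (median −0.45, with 29.1% of all genes called lower). Pnpt1, a polynucleotide phosphorylase (−0.99), Hsd17b10, a subunit of mitochondrial RNase P (−0.73), Elac2, which cuts the 3′ ends of transfer RNAs (−0.71), and the RNA-binding proteins Fastkd2 (−0.70) and Fastkd5 (−0.69) had the largest decreases. Fastk, for which binding to the mt-Nd6 message is known, was the gene called higher (0.57). In indirect CAP day 2, 10 were called lower and 1 higher (23.5% of all genes lower), and in PAM day 1, 14 lower (26.6%).

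Among 6 regulators of mitochondrial biogenesis, Ppargc1a, the coactivator PGC-1α, rose in PAM day 2 from a mean of 137 to 445 (1.71, SE 0.22, limma adjusted p = 0.000781) and in indirect CAP day 2 (1.79). It thus moved in the opposite direction from the 7 messages. It was also called higher in direct CAP 24 h (1.17), indirect CAP day 1 (1.41) and PAM day 1 (0.80). Gabpa (−0.56) and Pprc1 (−0.41) fell in PAM day 2. Ppargc1b (−0.45), Nrf1 (0.01) and Esrra (0.33) were not called there.

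**Figure D5:**
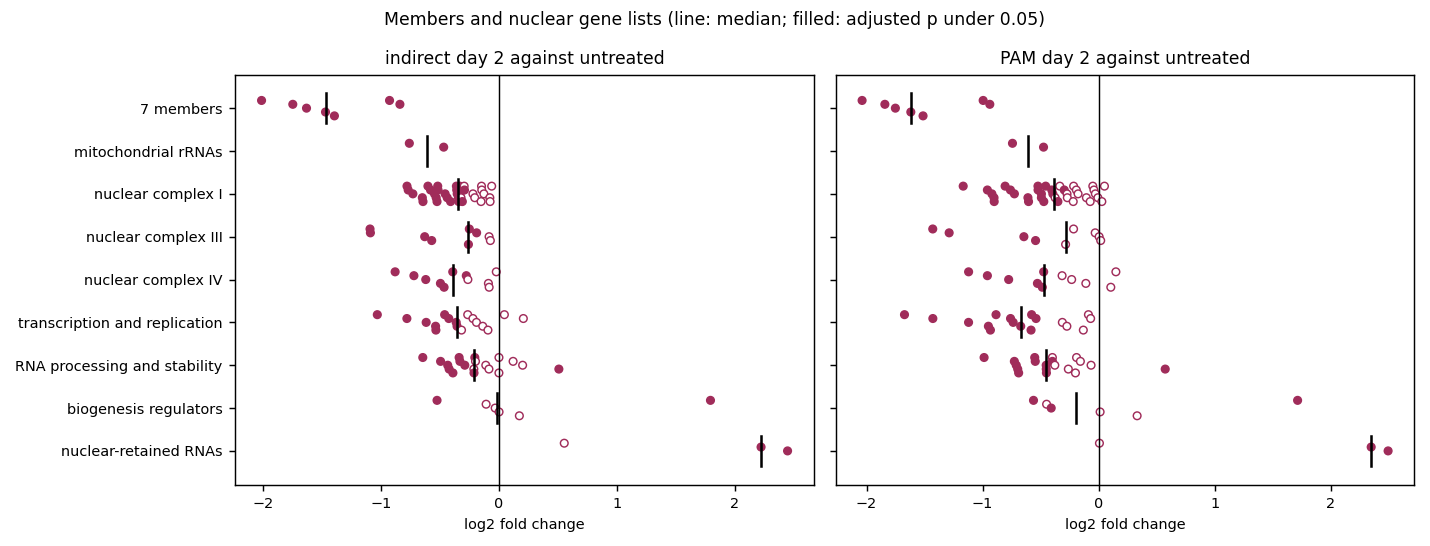
Log2 change against untreated organoids of the genes in each nuclear list and of the 7 messages (horizontal axis) in indirect CAP day 2 and PAM day 2, 1 point per gene, with filled points for genes called at an adjusted p under 0.05 and a vertical bar at each list's median. In PAM day 2 the 7 messages lie from −2.04 to −0.94, and the medians of the nuclear lists for complexes I, III and IV lie from −0.47 to −0.29.

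Other RNA classes moved in the same libraries. The 5 stem cell markers were all called lower in PAM day 1, indirect CAP day 2 and PAM day 2, with medians of −3.52, −2.67 and −3.99. Of all genes, 26.6%, 23.5% and 29.1% were called lower there, and the medians over all genes tested were −0.13, −0.01 and −0.12. The markers summed to 32557 to 38876 in untreated organoids and 1306 to 2640 in PAM day 1. In indirect CAP day 2 their sum was 2703 to 3953, and in PAM day 2 it was 757 to 2747. In direct CAP 24 h the sum was 5313 to 10861, in indirect CAP day 1 5936 to 15040 and in direct CAP 30 min 20274 to 32015. The order of groups was not the same as for the messages, since PAM day 1 had less of the stem cell markers than indirect CAP day 2 but more of the 7 messages. The part of the stem cell markers in the result was not tested.

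RNAs that stay in the nucleus went the other way. Malat1 went from a mean of 19850 in untreated organoids to 98030 in PAM day 2 (2.35), and Neat1 was at 2.49 in the same comparison. Both were called higher there and in indirect CAP day 2 and PAM day 1, while Kcnq1ot1 was at 0.01 in PAM day 2. Of all genes, 18.5% were called higher in PAM day 2, 20.3% in indirect CAP day 2 and 15.2% in PAM day 1. Summed, these 3 RNAs were at 18062 to 34597 in untreated organoids and 113434 to 141974 in PAM day 2, without overlap. Their part in the result was not tested.

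Markers of other cell types also differed in places. The macrophage gene Cd68, at a mean of 21.5 in untreated organoids, was called higher in PAM day 1 (66.0), indirect CAP day 2 (41.0) and PAM day 2 (52.3), and Lyz2 was called lower in PAM day 1 (143.5 to 47.7), while Ptprc, the pan-leukocyte gene, was at 0 to 12 in every library. Col1a1 (2.5 to 11) and Acta2 (4.0 to 11.7) of the fibroblast and muscle list were called higher in indirect CAP day 2. With means this low in untreated organoids, both met the filter value of 10 mainly through the treated libraries. The direction of these calls was thus set largely by the filter. Of the differentiated epithelial lists in PAM day 2, 2 of 8 enterocyte markers were called lower and 1 higher, and 3 of 5 Paneth and goblet cell markers were called lower. Of all genes, 29.1% were called lower there and 18.5% higher. The part of these markers in the result was not tested.

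Across the 22 libraries the 7 messages moved closely together, with Pearson r of 0.915 to 0.993 and a median of 0.980 over the 21 pairs. After each group's mean was removed, r was 0.730 to 0.971 with a median of 0.915. These libraries share their lines and each pair of messages shares the depth of its library, so r is given as a description. Outside the mitochondrial genome, 11779 genes with a mean value of 100 or more were ranked by likeness to the mean log2 value of the 7. The closest were Arhgef39 (r = 0.945), Mastl (0.944), Cdca3 (0.944), Haus5 (0.943), Mms22l (0.942), 4930427A07Rik (0.942), Ccnb2 (0.942), Cenpe (0.942), Rfwd3 (0.941) and Kif20b (0.940) over 22 libraries. Once group means were removed, the closest were Cnp (0.886), C87436 (0.882), Hgsnat (0.878), Jmjd8 (0.875) and Zkscan7 (0.868).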

How the data were processed

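Organoid RNA was sequenced as paired reads of 100 bases. The submitters' processing notes name Trimmomatic 0.36, STAR 2.5.3a, HTSeq 0.9.1 and GRCm38.p4/mm10. The deposited values are a score: the authors scaled read counts per gene to 20000000 per library and rounded them up to whole numbers, as the library sums show (the paper's legends also name a division by transcript length), so no count test was used (library sums 20007540 to 20016513). Library kits were Ovation SoLo by the labels, and Ovation SoLo or NEBNext by the methods.

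Log2(value + 1) was fitted with limma 3.58.1 (trend, R 4.3.3) for genes that reached a value of 10 in 3 or more fitted libraries, with Benjamini-Hochberg adjustment over all genes tested. Fold changes are on that scale. The fit was tested on simulated data. Sequences were read from GENCODE vM21 transcripts. The members and gene lists were chosen with earlier results of these data known. All 7 messages are named throughout. From lists of over 8 genes, up to 5 called genes in each direction with the largest change in PAM day 2 are named, and Polrmt was added after its value was seen. Likeness names the 10 highest r, and 5 within groups.

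Same-numbered libraries come from the same mouse. Deviations of same-line treated libraries correlated in all 45 pairs (median r 0.742), and those of untreated with treated libraries in 16 of 18 at r over 0.1. The untreated libraries of lines 1 and 2 were nonetheless closer to each other's line (line 1 in 6 of 6 treated groups, line 2 in 5 of 6), and the labels were kept. Alternatives are given at the end.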

Additional observations from a re-analysis of the deposited data

How the results depend on the processing

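Alternatives were quantile normalization, scaling to nuclear genes, a pseudocount of 10, no filter on low values, 1 fit of all 7 groups, line as a replicate block, leaving out each library in turn and the study's threshold. All 7 messages were called in indirect CAP day 2 and PAM day 2 under every alternative except the study's threshold (5 each). Quantile normalization moved the median of all genes in PAM day 2 from −0.12 to 0.00 and in PAM day 2 against indirect CAP day 2 from −0.11 to 0.01. Values are relative to the rest of the RNA, so an absolute loss is not measured.

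The study's threshold left 0 messages in the pooled comparison (4 called otherwise), 0 in direct CAP 24 h, 2 in PAM day 1, 0 in indirect CAP day 2 against day 1 and 0 for line. The pooled comparison gave 2 with its 9 treated libraries as 1 group, an alternative added after seeing the data. Direct CAP 24 h gave 1 rather than 2 with no filter, with all 7 groups in 1 fit and with the replicate block. PAM day 2 against PAM day 1 gave 4 with all 7 groups and 3 with the block rather than 0. The block also gave 6 in the pooled comparison, 2 in direct CAP 24 h against 30 min and 2 in PAM day 1 against direct CAP 24 h. It changed no other count of calls among the 7. Fitted over all 7 groups without the untreated libraries of lines 1 and 2, which was added after seeing the data because these libraries correlated more with another line, the replicate block gave 2 in the pooled comparison, 2 in direct CAP 24 h, 6 in PAM day 1 (mt-Nd1 lost) and the same counts as otherwise in the other groups against untreated.

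Leaving out 1 library gave 0 to 2 calls in direct CAP 24 h, 0 to 1 in indirect CAP day 1, 3 to 5 in the pooled comparison, 5 to 7 in PAM day 1, 0 to 7 in indirect CAP day 2 against day 1, 0 to 4 in PAM day 2 against PAM day 1 and 6 to 7 for line.

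Signs changed only for differences that were not called. With quantile normalization mt-Co1 in direct CAP 30 min was −0.21, mt-Nd1 in direct CAP 24 h −0.10 and mt-Nd6 in PAM day 2 against indirect CAP day 2 0.056. With the block mt-Co1 in direct CAP 30 min was −0.041 and mt-Nd1 in direct CAP 24 h −0.000512, and without those untreated libraries mt-Co1 in indirect CAP day 1 was 0.021. With 1 library left out, direct CAP 30 min ranged from −0.068 to 0.095 for mt-Co1, −0.17 to 0.081 for mt-Cytb, −0.00113 to 0.25 for mt-Nd1, −0.021 to 0.21 for mt-Nd2, −0.023 to 0.18 for mt-Nd4 and −0.12 to 0.045 for mt-Nd5. Indirect CAP day 1 ranged from −0.17 to 0.031 for mt-Co1, −0.023 to 0.25 for mt-Nd1, −0.20 to 0.10 for mt-Nd2 and −0.32 to 0.027 for mt-Nd4. mt-Nd1 ranged from −0.027 to 0.093 in direct CAP 24 h and from −0.22 to 0.033 against direct CAP 30 min. PAM day 2 against indirect CAP day 2 ranged from −0.22 to 0.010 for mt-Co1, −0.29 to 0.055 for mt-Nd1, −0.37 to 0.078 for mt-Nd2, −0.40 to 0.033 for mt-Nd4, −0.32 to 0.046 for mt-Nd5 and −0.19 to 0.16 for mt-Nd6. Apart from the construction of each alternative (fewer libraries, another spread), the cause was not tested.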
